A study of Homo sapiens with 4 samples.

Results

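L1 and NCAM neural adhesion molecules were examined in SK-N-SH, a human neuroblastoma cell line whose cultures hold adrenergic cells, like neuroblasts, beside mesenchymal cells that adhere to the substrate. The 8 genes were L1CAM, CHL1, NRCAM and NFASC of the L1 family, NCAM1 and NCAM2 of the NCAM family, and the related ALCAM and CNTN1. Rows were matched to them by gene symbol alone. Of these 8, 7 matched a row of the table of 24014 genes, and CHL1 was not analysed here. The control cells (labelled wild type) had received an empty lentiviral vector, and the AP1AR-DT_OE cells had received a lentivirus for AP1AR-DT, a long non-coding RNA also named AC109347.1. For AP1AR-DT_OE 2 the title gives AC109347.1, but genotype and treatment are labelled AC109347.2. Each group held 2 libraries, so every group value below has n = 2. The labels do not say whether the cells were a clone or a pool, or that the libraries came from separate cultures, so the p-values measure only the spread between these libraries, which may be technical.

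These molecules are cell surface proteins of the immunoglobulin superfamily that hold neurites, glia and neighbouring neurons together. L1 family proteins bind each other and integrins outside the cell and ankyrin inside it, which ties them to the spectrin cytoskeleton. NCAM proteins bind themselves and signal through FGF receptors, and polysialic acid on NCAM1 loosens adhesion in growing neurons. CNTN1 has no transmembrane segment, is held by a lipid anchor and works with L1 family proteins and CNTNAP1 at the axon surface. In neuroblastoma, L1CAM, NCAM1 and ALCAM are well known surface antigens.

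Promoter windows are shown for the 4 genes whose window of 300 bases lay nearest the start of the gene, because the study asked about the transcription factor NRF1 at the promoter of NEGR1, another neural adhesion gene. They are RefSeq sequences of GRCh38.p14, from 250 bases before to 50 after an annotated start, printed on the strand of the gene. Capitals mark matches on either strand to a GC box (GGGCGG) or to a core of the NRF1 motif (GCGCANGC), and no match of one overlapped a match of the other. The windows lie at chr3:105366659-105366958 (plus strand) for ALCAM, chrX:153875965-153876264 (minus) for L1CAM, chr1:204828402-204828701 (plus) for NFASC and chr7:108456387-108456686 (minus) for NRCAM.
ALCAM: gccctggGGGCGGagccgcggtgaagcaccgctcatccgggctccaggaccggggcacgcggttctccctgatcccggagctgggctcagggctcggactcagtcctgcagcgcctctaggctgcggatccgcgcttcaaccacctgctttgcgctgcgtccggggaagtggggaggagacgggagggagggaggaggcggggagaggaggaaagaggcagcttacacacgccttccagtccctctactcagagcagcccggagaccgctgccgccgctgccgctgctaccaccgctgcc
L1CAM: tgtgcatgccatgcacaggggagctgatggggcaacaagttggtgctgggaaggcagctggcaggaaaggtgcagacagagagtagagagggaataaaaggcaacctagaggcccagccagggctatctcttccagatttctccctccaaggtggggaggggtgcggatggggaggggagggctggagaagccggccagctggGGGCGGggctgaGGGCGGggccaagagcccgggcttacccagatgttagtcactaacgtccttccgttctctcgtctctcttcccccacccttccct
NFASC: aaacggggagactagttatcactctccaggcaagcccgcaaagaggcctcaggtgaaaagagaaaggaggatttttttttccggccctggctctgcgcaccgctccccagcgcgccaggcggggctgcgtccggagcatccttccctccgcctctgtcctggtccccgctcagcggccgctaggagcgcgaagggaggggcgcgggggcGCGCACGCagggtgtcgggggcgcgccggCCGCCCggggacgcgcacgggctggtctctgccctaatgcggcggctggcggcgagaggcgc
NRCAM: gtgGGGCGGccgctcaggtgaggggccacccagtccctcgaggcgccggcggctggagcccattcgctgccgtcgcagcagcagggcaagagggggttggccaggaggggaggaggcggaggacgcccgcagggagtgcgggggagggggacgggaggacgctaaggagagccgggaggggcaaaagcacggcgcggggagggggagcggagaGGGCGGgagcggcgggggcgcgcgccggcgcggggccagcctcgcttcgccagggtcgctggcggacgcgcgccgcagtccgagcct
ALCAM and NFASC had 1 GC box each, and L1CAM and NRCAM had 2 each. A GC box was present in 45.0% of the 35116 windows of the same length. The NRF1 core was found once, in NFASC, against 11.98% of all windows. Neither of the NRF1 motifs that the paper reported as predicted at NEGR1 contains this core. Sites like those were therefore not searched for here. None of the 4 held TATAAA, which was found in 11.5% of windows. The ALCAM window started from the same base as the deposited gene, with a distance of 0, and the NFASC window from 1 base away. The NRCAM start was 281 bases away and that of L1CAM 10159 bases inside the deposited gene. The windows nearest to NCAM2 and CNTN1 lay 148753 and 135745 bases from the deposited start and are not shown, and NCAM1 was not analysed for its promoter here.

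The overexpressed RNA itself separated the groups. AP1AR-DT (ENSG00000260526, listed as RP11-73K9.2) had 3 counts in control 1, 18 in control 2, 680 in AP1AR-DT_OE 1 and 1065 in AP1AR-DT_OE 2, so both overexpression libraries lay above both controls. The libraries held between 21988065 and 26184599 counts. Low values piled up at 4 counts, with 3287 entries of the table at 4 against 2136 at 3 and 1509 at 5, so that a pair of reads was worth about 4 counts, and 3 pairs, or 12 counts, was taken as the limit that an observation of 0 allows in 1 library. The libraries numbered 1 and 2 differed along the GC content of the transcripts. Across 13284 genes that averaged 50 or more normalized counts, the log2 ratio of library 2 over library 1 fell with GC content in control (Spearman's rho = -0.77) and in AP1AR-DT_OE (rho = -0.65), a description across genes that share a library. Of the markers of the line, 11 of 12 adrenergic and 10 of 10 mesenchymal genes had a row, and none was called. PRRX1, a mesenchymal regulator named after its values were seen, was the 1 marker with an unadjusted p under 0.05 (normalized counts 2770 and 11358 in the control libraries against 1241 and 2246, Log2FC -2.02, adjusted p = 0.431). TH was not analysed here. Normalized counts summed over the adrenergic markers ran from 26575 to 31638 in control and from 28717 to 30438 in AP1AR-DT_OE. Summed mesenchymal markers ran from 168362 to 235761 against 187945 to 230602. These sums were not scaled by length and mostly follow abundant genes, such as HAND2 (12211 to 15659 over the libraries) and VIM (67917 to 93086). They say little about less abundant markers. Of the Schwann cell markers, which mark another neural crest lineage, 3 of 5 had a row, and their sum was 78.6 to 84.1 in control and 122 to 132 in AP1AR-DT_OE. Their part in the results was not tested.

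Levels of different genes were compared only as normalized read counts per kb of the longest transcript, averaged over the 4 libraries. ALCAM, a partner of CD6 and of itself in cell contacts, was first with 269 (range over libraries 154 to 399). NCAM1 followed with 167 (144 to 197), L1CAM with 146 (104 to 169) and NFASC with 108 (81.2 to 145). Neighbours among these 4 were not separated from each other, as their ranges overlapped. In control 1, NCAM1 (178) and L1CAM (169) exceeded ALCAM (154), in AP1AR-DT_OE 1 ALCAM (164) and L1CAM (163) were close, and ALCAM led by more in the libraries numbered 2 (399 and 358). NRCAM stood lower at 27.6 (18.01 to 38.8), apart from NFASC above it and from NCAM2 below it. NCAM2 at 3.25 (1.64 to 6.52) and CNTN1 at 2.97 (0.80 to 4.08) were the lowest and were not separated from each other. Thus within the NCAM pair the transcripts were nearly all NCAM1, and within the L1 family L1CAM and NFASC exceeded NRCAM in every library. With the exon union as the length, L1CAM (104) came before NCAM1 (76.5), and the remaining 5 kept their ranks.

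The make-up of the adhesion transcripts differed between libraries of the same group. ALCAM took 23.0% of the summed level per kb of the 7 genes in control 1, 51.6% in control 2, 26.7% in AP1AR-DT_OE 1 and 42.7% in AP1AR-DT_OE 2. Both libraries numbered 2 were higher than both numbered 1, and the 2 groups overlapped. NFASC took 21.8%, 10.5%, 18.7% and 10.7% in the same order, the reverse pattern. The ratio of ALCAM to NFASC, on the same scale, was 1.06 and 4.92 in control and 1.43 and 3.98 in AP1AR-DT_OE. NCAM1 took 26.6% and 18.6% in the controls against 24.3% and 23.5%.

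**Figure D1:**
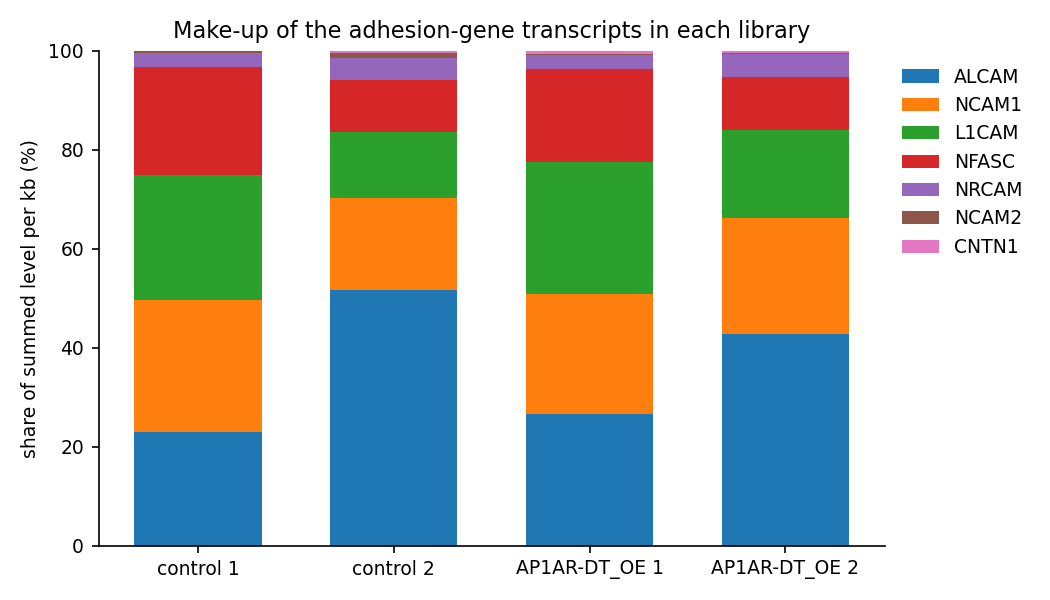
Share of each gene in the summed level per kb of the 7 adhesion genes (vertical axis, percent), 1 bar per library. ALCAM reached 51.6% and 42.7% in the libraries numbered 2 and 23.0% and 26.7% in those numbered 1, whichever the group.

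To ask whether AP1AR-DT changed these adhesion genes, the groups were compared in 1 fit over all 24014 genes. None of the 7 genes was called by the DESeq2 Wald test at an adjusted p under 0.05, where 0.137% of all genes tested were called, and none had an unadjusted p under 0.05, where 0.816% of all genes did. The edgeR quasi-likelihood test also called 0 of the 7, with 0 of 17027 genes called (0%) and 0.658% at an unadjusted p under 0.05. For none of the 5 members that averaged 50 or more normalized counts did both AP1AR-DT_OE libraries lie on one side of both controls, against 9.45% of the 13298 genes at that level. The median Log2FC of the 7 was 0.08, beside -0.03 over all genes tested. For the 5 more abundant genes the 95% intervals of the fold ran from 0.43 to 0.60 at their lower ends and from 1.75 to 2.46 at their upper ends, and differences inside them were not detectable at this depth and replication. RNA came from whole cultures, in which fewer cells of a type and less RNA per cell cannot be told apart.

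**Figure D2:**
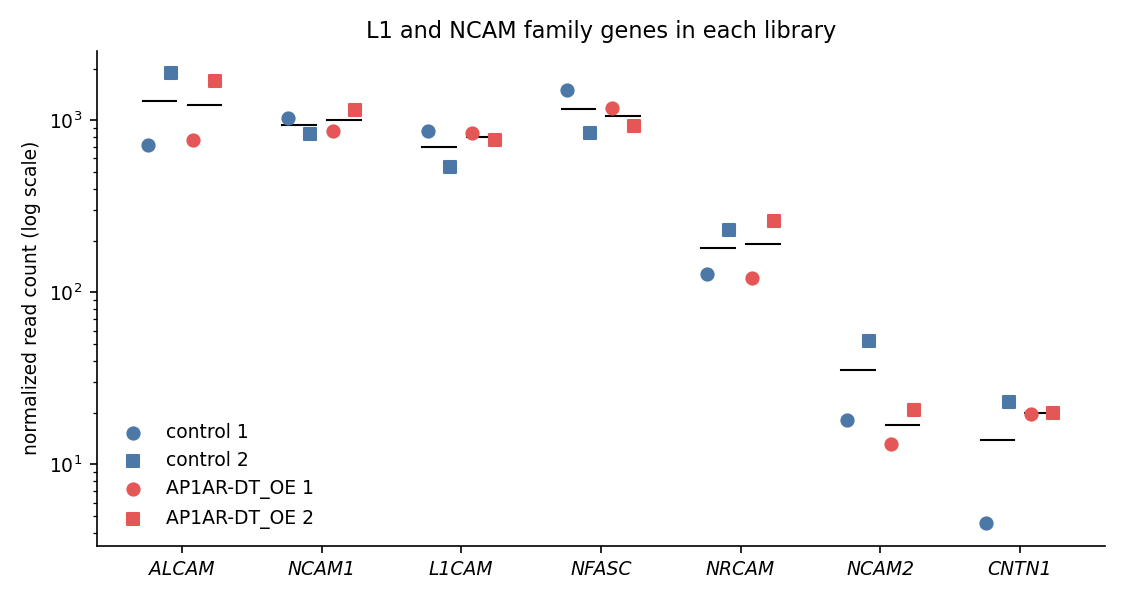
Normalized read count (log axis) of each adhesion gene in the 2 control (blue) and 2 AP1AR-DT_OE (red) libraries, circles for libraries numbered 1 and squares for those numbered 2, with a line at each group mean. The AP1AR-DT_OE points overlap the controls for all 7 genes. For ALCAM, NRCAM and NCAM2 the squares lie above the circles in both groups, and for CNTN1 clearly so only in control.

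In the L1 family, L1CAM (ENSG00000198910, chromosome X, 153861514 to 153886173), the founding member and a promoter of neurite growth, had 869 and 534 normalized counts in control, against 839 and 767 in AP1AR-DT_OE. The AP1AR-DT_OE values lay between the controls, at 803 ± 50.8 against 701 ± 237 (SD, n = 2). The Log2FC was 0.20 (95% interval -0.74 to 1.14, adjusted p = 1), and it was -0.10 without control replicate 2. L1CAM shares exon bases with L1CAM-AS1 (358, opposite strand) and ENSG00000284987 (439, same strand), which were not analysed here. NFASC (ENSG00000163531, chromosome 1, 204828651 to 205022822), neurofascin, which organizes the axon initial segment and the nodes of Ranvier, had 1503 and 839 in control, against 1187 and 929 in AP1AR-DT_OE. Again the AP1AR-DT_OE libraries lay between the controls (1058 ± 182 against 1171 ± 470, SD, n = 2). The Log2FC was -0.15 (95% interval -1.10 to 0.81, adjusted p = 1), 0.33 with control 1 left out and 0.01 with AP1AR-DT_OE 2 left out.

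NRCAM (ENSG00000091129, chromosome 7, 108147623 to 108456717), an ankyrin-binding protein of axons and nodes, had 129 and 231 normalized counts in control, against 121 and 260 in AP1AR-DT_OE. The libraries split by number and not by group. The group means were 180 ± 72.6 and 190 ± 98.6 (SD, n = 2), a Log2FC of 0.08 (95% interval -1.14 to 1.30, adjusted p = 1). It turned to -0.29 with control 1 left out and to -0.59 with AP1AR-DT_OE 2 left out, and was 0.58 with control 2 left out. Summed per kb, the 3 L1 family genes had 334 and 220 in control and 296 and 278 in AP1AR-DT_OE.

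In the NCAM family, NCAM1 (ENSG00000149294, chromosome 11, 112961247 to 113278436), the main carrier of polysialic acid and known as CD56, had 1036 and 838 normalized counts in control, against 867 and 1144 in AP1AR-DT_OE. The groups overlapped, with means of 937 ± 141 and 1005 ± 196 (SD, n = 2). Its Log2FC of 0.10 (95% interval -0.80 to 1.00, adjusted p = 1) had the narrowest interval of the 7 genes. It was -0.03 without control replicate 2 and -0.12 with AP1AR-DT_OE 2 left out. NCAM1 overlaps the antisense NCAM1-AS1, with 1 to 5 counts in a library, ENSG00000247416, with 18 to 36, and TTC12-DT, with 0 to 11, and it is not stated whether counting used strand.

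NCAM2 (ENSG00000154654, chromosome 21, 20998409 to 21543329), studied mostly for its part in olfactory axons, had 16 and 68 counts in control, against 12 and 21 in AP1AR-DT_OE. In normalized counts these were 18.2, 52.5, 13.2 and 20.8, so only control 2 stood apart from the rest, and AP1AR-DT_OE 1 lay at the limit of 12 counts. The fitted Log2FC of -1.06 (95% interval -3.16 to 1.04, adjusted p = 1) rested on control 2, since it was -0.09 without that library (control replicate 2). It was the most negative value of the 7.

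ALCAM (ENSG00000170017, chromosome 3, 105366909 to 105576900), known as CD166, had 722 and 1878 normalized counts in control, against 770 and 1683 in AP1AR-DT_OE. Both groups held 1 low and 1 high library, the high one numbered 2 in each, and the means were 1300 ± 817 and 1227 ± 646 (SD, n = 2). The Log2FC was -0.08 (95% interval -1.22 to 1.05, adjusted p = 1). It turned to 0.78 with control 2 left out and to 0.37 with AP1AR-DT_OE 1 left out, and moved to -0.62 and -0.77 with control 1 or AP1AR-DT_OE 2 left out. CNTN1 (ENSG00000018236, chromosome 12, 40692439 to 41072415), contactin, had 4 and 30 counts in control, against 18 and 20 in AP1AR-DT_OE. The 4 counts of control 1 are about 1 pair of reads, under the limit, and the other 3 libraries were alike at 19.7 to 23.1 normalized counts. Its fitted Log2FC was 0.50 (95% interval -2.04 to 3.04, adjusted p = 1), -0.23 without control replicate 1 and 2.13 with control 2 left out.

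**Figure D3:**
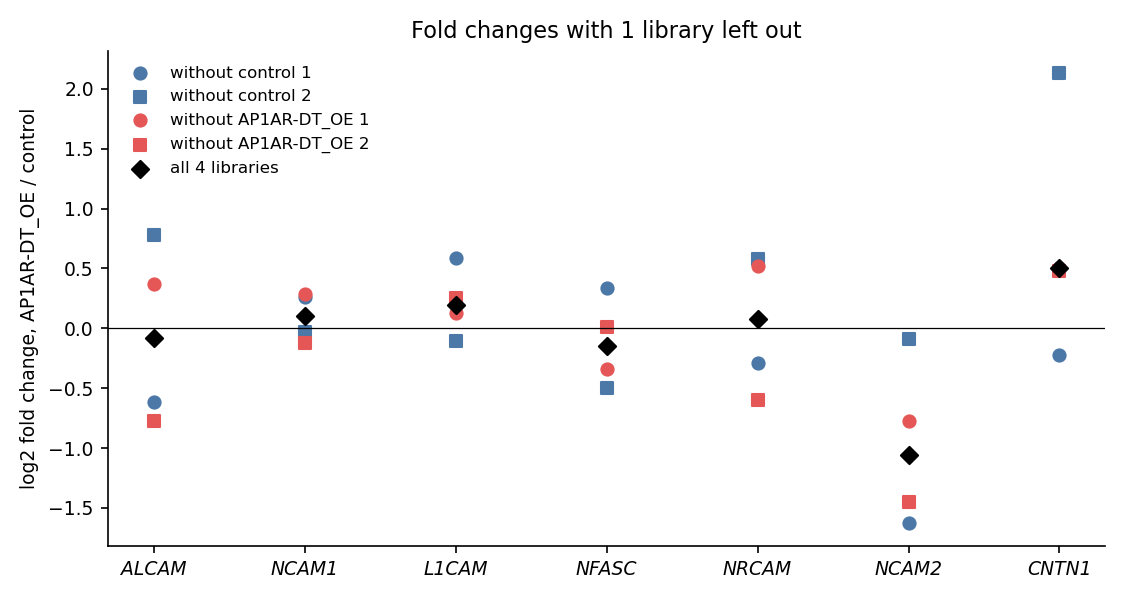
Fitted Log2FC of AP1AR-DT_OE over control for each adhesion gene with all 4 libraries (black) and with 1 library left out (colours and shapes as in the legend). The sign changed in at least 1 of the 4 fits for each gene except NCAM2, which ran from -1.63 to -0.09.

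The difference between libraries of a group was set beside the difference between groups, because the former exceeded the latter for most of these genes. The absolute Log2FC was smaller than the absolute log2 ratio of library 2 over library 1 in both groups for 4 of the 5 adhesion genes with a mean of at least 50, and for 77.3% of the 13298 genes at that level, close to the share in the adhesion genes. L1CAM was the exception among the 5. Ratios of library 2 over library 1 in this and the next sentences are of log2(normalized count + 1). For ALCAM, with 39.6% GC in its longest transcript, the ratio was 1.38 in control and 1.13 in AP1AR-DT_OE. For NRCAM (42.1% GC) it was 0.84 and 1.10. Both genes were higher in the second library whichever the group.

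At the other end, NFASC (54.7% GC) had -0.84 and -0.35, and L1CAM (60.0% GC) had -0.70 and -0.13, so both were lower in the second library. NCAM1 (48.0% GC) lay between, with -0.31 in control and 0.40 in AP1AR-DT_OE. The low NCAM2 (33.8% GC) had 1.48 and 0.63, and CNTN1 (38.9% GC) had 2.12 and 0.01. Over the 7 genes, which share the same libraries, Spearman's rho between GC content and this ratio was -0.93 in control and -0.57 in AP1AR-DT_OE. With the GC trend of all genes taken out of each library, the ratio of ALCAM was 0.27 and 0.42, that of NRCAM -0.02 and 0.57, that of NFASC -0.32 and -0.07 and that of L1CAM 0.03 and 0.20. That of NCAM1 was little moved, at -0.39 and 0.39, that of NCAM2 was -0.05 and -0.28, and that of CNTN1 was 0.96 and -0.73. Spearman's rho with GC content over the 7 was then -0.32 in control and 0.32 in AP1AR-DT_OE. Between groups, the Log2FC was then 0.05 for ALCAM, 0.13 for NRCAM, -0.15 for NFASC and 0.19 for L1CAM. It was 0.09 for NCAM1, -0.82 for NCAM2 and 0.89 for CNTN1.

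**Figure D4:**
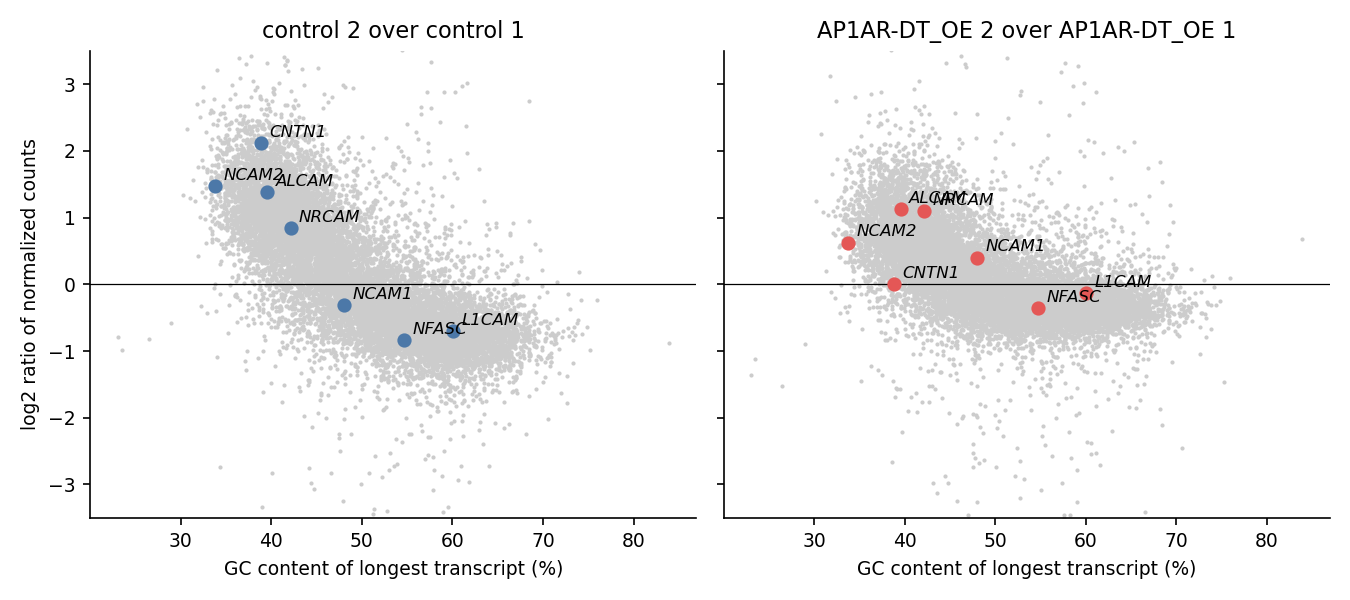
Log2 ratio of library 2 over library 1 (vertical axis) against GC content of the longest transcript (horizontal axis, percent) in control (left) and AP1AR-DT_OE (right), with all genes of mean normalized count at least 50 in grey and the 7 adhesion genes in colour. ALCAM, NRCAM and NCAM2 lie above 0 and NFASC and L1CAM below 0 in both panels, and 92 and 83 genes lie beyond the axis limits of 3.5 either way and are not drawn.

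The genes whose pattern over the 4 libraries was most like that of a member were sought among 13298 genes, by the Euclidean distance between centred log2(normalized count + 1) values. For ALCAM, the first by mean level per length over the 4 libraries, these were PTP4A2 (distance 0.027), METAP2 (0.036) and KDELC1 (0.036). For L1CAM, with the largest absolute Log2FC of the 5 more abundant genes, these were TMEM222 (0.040), DUSP8 (0.041) and ZNF771 (0.051). PTP4A2, for example, had 1180 and 3145 normalized counts in control, against 1266 and 2782 in AP1AR-DT_OE. It shares the alternation of ALCAM by library number because it was picked for its likeness over these same libraries.

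Genes that act with these molecules were taken from a list of 67 partners, of which 60 had a row and 51 a mean of at least 50. DESeq2 called 0 of the 60 in either direction, and 0 had an unadjusted p under 0.05, as was also found with edgeR for the 56 it tested. With the replicate number as a block, edgeR gave 3 of the 56 at an unadjusted p under 0.05 (437 of 17027 genes). By the same limit, the DESeq2 fit with the GC trend removed gave 1 of the 60 (266 of 24014 genes). That with the replicate block added also gave 1 of the 60 (252 of 24014 genes), and no partner was called in these fits. Of the 51, 16 had a Log2FC above 0 and 35 below 0, with a median of -0.08, beside 5996 above 0, 7302 below 0 and a median of -0.02 for the 13298 genes. Both AP1AR-DT_OE libraries lay on one side of both controls for 5 of the 51, a share close to the 9.45% given above. The 4 that lay below both controls were B3GAT2, CNTN3, NRP1, a semaphorin co-receptor that pairs with L1CAM, and NUMB, an endocytic adaptor that binds L1CAM, the last 2 of which were named after their values were seen. NRP1 averaged 4058 in control and 3668 in AP1AR-DT_OE (Log2FC of -0.15), and NUMB 897 and 749 (Log2FC of -0.26). Median Log2FC values by role were -0.09 for 13 cytoskeletal linkers, -0.12 for 14 surface partners, -0.04 for 9 proteases and glycan enzymes, -0.19 for 5 matrix ligands and 0.001 for 10 signalling and trafficking genes.

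Among enzymes that build the HNK-1 sugar carried by NCAM and L1 proteins, B3GAT2, a glucuronyltransferase, had 113 and 170 normalized counts in control, against 62.5 and 61.5 in AP1AR-DT_OE. The groups did not overlap, and the Log2FC of -1.19 (95% interval -2.45 to 0.07, adjusted p = 1) was the lowest of the 51 partners. B3GAT1, which does the same step, had 142 and 91.0 against 123 and 173, with a Log2FC of 0.34, the highest of the 51. ST8SIA2, a polysialyltransferase that modifies NCAM1, had 117 and 40.1 against 102 and 88.3 (Log2FC of 0.28), and its groups overlapped.

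The remaining low values belonged to surface partners. CNTN3, a contactin like CNTN1, had 60.4 and 89.5 normalized counts in control, against 39.5 and 51.6 in AP1AR-DT_OE without overlap, and its Log2FC was -0.72 (95% interval -2.19 to 0.76). ITGB3, the integrin subunit that pairs with ITGAV to bind L1CAM, had 894 and 535 against 562 and 421 (Log2FC of -0.54). CNTNAP2, a neurexin-like partner of contactins, had 69.5 and 98.0 against 49.4 and 69.5 (Log2FC of -0.50). KIF4A, a motor that carries L1CAM in growing axons, had 194 and 365 against 196 and 426 (Log2FC of 0.15), a split by library number. None of these differences passed correction, with an adjusted p = 1 for each.

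**Figure D5:**
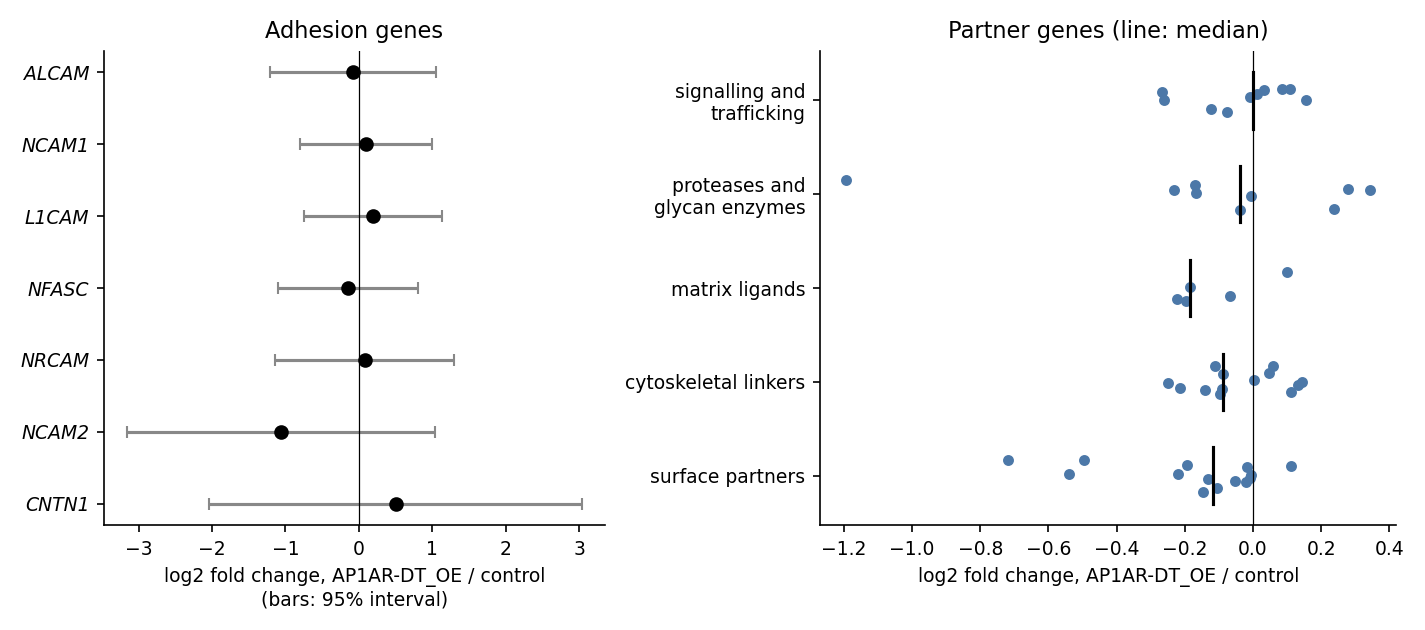
Log2FC of AP1AR-DT_OE over control for the 7 adhesion genes with 95% intervals (left) and for the 51 partner genes of mean normalized count at least 50, by role, with a line at each median (right). All 7 intervals cross 0, and B3GAT2 lies farthest to the left among the partners at -1.19.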

How the data were processed

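Total RNA from 4 SK-N-SH libraries was sequenced as paired-end reads. Per the paper's methods, the authors aligned reads to hg19 with HISAT2 and took gene counts from StringTie output, whereas the submitters' processing notes list TopHat2 2.0.4, HTSeq, Cuffdiff and edgeR 2.6.12. The annotation is not given in the sources used here. The deposited counts are whole numbers without normalization. The gene coordinates printed are those of the deposited table and lie on GRCh38, as the ALCAM and NFASC starts show. Columns with the authors' own fold changes and p-values were not used.

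The fit over the table used DESeq2 1.42.0 under R 4.3.3 (median-of-ratios size factors, two-sided Wald test of AP1AR-DT_OE against control with no covariate, Benjamini-Hochberg adjustment over all genes, default independent filtering, called at an adjusted p under 0.05). Intervals are the Log2FC ± 1.96 standard errors. edgeR 4.0.16, other scalings and filters, a replicate block, GC correction (lowess, span 0.3), counts divided by 4 and leaving out each library were the alternatives. Transcript length, GC content and overlaps came from GENCODE v44 on GRCh37, matched by gene ID. One partner, SHTN1, was matched through an older symbol. The fits were tested on simulated data. Intervals and limits cover counting error and library spread only, since amplified reads are not independent molecules. The members and gene lists were chosen with earlier results of these data known. Named were the members, AP1AR-DT, the 4 highest and 4 lowest partners by Log2FC at a mean count of at least 50, any partner called, and the 3 nearest patterns to the most abundant member and to the one with the largest absolute Log2FC. One of these partners is not reported here.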

Additional observations from a re-analysis of the deposited data

How the results depend on the processing

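Neither an adhesion gene nor a partner gene was called under any of the 10 alternatives or with 1 library left out, and the smallest adjusted p of an adhesion gene was 0.999. The count of genes called, 33 as reported, went to 0 under edgeR (112 by unadjusted p under 0.05), to 15 once counts were divided by 4, to 55 with the GC trend removed, 60 with the GC trend removed with replicate block, and 45 to 90 with 1 library left out (90 without control replicate 1, 75 without control replicate 2, 45 without AP1AR-DT_OE replicate 1, 50 without AP1AR-DT_OE replicate 2). The cause was not tested. The replicate block alone gave 37 genes and edgeR with replicate block 44, with no adhesion gene among them. Libraries with the same number deviated together (r = 0.49 across 13298 genes), but no label calls the number a batch. Leaving out a library leaves 1 in its group, and that library is assumed to vary like the other group.

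The sign of a Log2FC turned only for ALCAM among the 10 alternatives, to 0.051 with the GC trend removed and 0.044 with the GC trend removed and the replicate block. With 1 library left out, Log2FC ran from -0.77 to 0.78 for ALCAM, -0.12 to 0.28 for NCAM1, -0.10 to 0.59 for L1CAM, -0.50 to 0.33 for NFASC, -0.59 to 0.58 for NRCAM, -1.63 to -0.09 for NCAM2 and -0.23 to 2.13 for CNTN1. In those fits the median Log2FC of all genes ran from -0.12 to 0.07. With the exon union as length, 2 genes exchanged ranks in the order of levels. Depth limits NCAM2 and CNTN1, which had 68 counts or fewer in each library.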
